A study of Mus musculus with 6 samples.

Results

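The 10 genes described here are 7 annexins (Anxa1 to Anxa7) and 3 S100 genes (S100a6, S100a10 and S100a11) whose products bind annexins. They were taken by symbol from a deposited table of 21949 protein-coding genes, and the transcripts of each gene were summed. The genes were picked because earlier work on the same values showed differences between the groups, so their differences between cerulein-treated and untreated mice are given as a description, without a test. Total RNA without ribosomal RNA was sequenced from acinar cells that were sorted from the digested pancreas of adult mice, in 3 WT+Cerulein and 3 WT libraries. Mice of both groups were of a CD1-enriched strain and carried ElastaseCreER, a Cre recombinase that an elastase promoter drives, and the ROSA26YFP reporter, so the untreated group is not free of these alleles. Cerulein is a peptide related to cholecystokinin that drives excess secretion from acinar cells and is used to bring on pancreatitis in mice; it was given as 7 injections on a day, on alternate days within 3 days, and 1 day of recovery came after. The dose is not given in a usable unit, and no vehicle is named for the WT mice. The labels do not name the marker used for the sort, and they do not say that each library came from another mouse, so the spread between libraries may be technical.

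Annexins are proteins that bind acidic membrane lipids when calcium rises, and through this they link vesicles, the plasma membrane and the actin cytoskeleton. S100 proteins are small EF-hand proteins that act mostly as dimers, and a dimer can hold annexin molecules on opposing membranes. In the exocrine pancreas annexins have been studied for the fusion of zymogen granules, for the repair of torn membranes and, in ductal and tumour cells, for plasmin formation at the cell surface.

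In mm10 (GRCm38, GENCODE vM21), Anxa1 lies at chr19:20373428-20390944, Anxa2 at chr9:69453620-69491795, Anxa3 at chr5:96793339-96845966, Anxa4 at chr6:86736840-86793584 and Anxa5 at chr3:36448923-36475894. Anxa6 lies at chr11:54979108-55033445 and Anxa7 at chr14:20455260-20480133. The S100 genes share chromosome 3, with S100a6 at chr3:90612882-90624181, S100a11 at chr3:93520488-93526287 and S100a10 at chr3:93555080-93564643.

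RefSeq promoter windows (GRCm38.p6, 250 bases before to 50 after a start site) were found for 7 of the 10 genes, and not for Anxa3, Anxa6 and S100a10. The windows of Anxa2 and S100a11 are shown because these genes are, of those with a window, among those with the largest differences. That of Anxa5 is shown because it is, of the annexins with a window, the one with the highest level in WT. Anxa3 and S100a10, with log2 differences of 3.80 and of 2.94 or 4.00 (by placement), could not be searched. They run 5′ to 3′ on the gene's strand, and capitals mark each TGANTCA, the letters of an AP-1 site, searched on both strands. They lie at chr9:69453433-69453732 (plus strand), chr3:93520246-93520545 (plus strand) and chr3:36475838-36476137 (minus strand).
Anxa2: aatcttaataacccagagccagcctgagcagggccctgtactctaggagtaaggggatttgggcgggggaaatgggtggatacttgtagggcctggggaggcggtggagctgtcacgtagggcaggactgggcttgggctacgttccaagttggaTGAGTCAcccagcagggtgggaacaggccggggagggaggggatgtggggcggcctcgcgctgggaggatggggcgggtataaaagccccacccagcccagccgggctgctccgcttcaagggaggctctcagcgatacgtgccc
S100a11: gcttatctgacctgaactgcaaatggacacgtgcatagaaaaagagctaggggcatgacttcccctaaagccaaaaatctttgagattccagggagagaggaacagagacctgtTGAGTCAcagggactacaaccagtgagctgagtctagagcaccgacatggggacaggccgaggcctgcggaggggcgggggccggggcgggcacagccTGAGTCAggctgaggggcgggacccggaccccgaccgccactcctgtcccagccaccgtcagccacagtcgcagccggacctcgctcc
Anxa5: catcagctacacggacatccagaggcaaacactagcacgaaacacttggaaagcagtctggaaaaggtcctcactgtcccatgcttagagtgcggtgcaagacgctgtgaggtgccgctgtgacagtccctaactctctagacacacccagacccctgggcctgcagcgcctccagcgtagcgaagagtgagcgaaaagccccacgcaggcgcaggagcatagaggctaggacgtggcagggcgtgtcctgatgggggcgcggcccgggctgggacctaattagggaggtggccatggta
The Anxa2 window held TGANTCA at 1 place, which begins at -95 from the start site. The S100a11 window held it at 2 places, beginning at -136 and -38. Windows of the other 5 matched genes did not hold these letters, and 7.81% of all 32851 RefSeq windows of this length did. Among those 5 is S100a6, with a log2 difference of 2.78 or 3.82 by placement. A link between these letters and the differences was not tested. GGGCGG, the letters of a GC box, was found in windows of 4 of the 7 genes (Anxa2, Anxa4, Anxa7 and S100a11), against 35.7% of all windows. TATAAA was found in those of Anxa1 and Anxa2, against 13.6% of all windows. The 7 genes have 9 windows between them, so a count of genes and a share of windows are unlike measures. No match of Anxa2 or S100a11 to TGANTCA overlapped another of these motifs.

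The deposited values are FPKM, fragments per kilobase of transcript scaled to a library total, and 18.05% to 21.41% of the transcript values of a library had lost their decimal mark. Marks were restored from the rule that FPKM times the transcript's effective length gives whole fragments, together with the other libraries of the group. Of the 60 values of the 10 genes, 56 reached a posterior of at least 0.95, and 4 could not be settled. These 4 are given at their leading placement and at the other, and are called open values. Because the replicates help to place a mark, the spread between libraries may be understated. A value of 1 FPKM for a transcript of 2000 bases stood for 23.1 to 34 fragments in WT+Cerulein libraries and 6.45 to 8.09 in WT libraries, so low WT values rest on few fragments. Markers of acinar cells were abundant in every library. The carboxypeptidase Cpa1 was listed at 6230 to 10400 FPKM in WT+Cerulein and at 42600 to 69000 FPKM in WT. The acinar transcription factor Bhlha15 was at 15.5, 4.60 and 5.61 FPKM in WT+Cerulein, against 59.1, 97.5 and 64.9 FPKM in WT. All 11 testable genes of the acinar marker list fell on the deposited scale, beside 5.46% of all genes tested. Digestive enzymes summed to 98300 to 160000 FPKM in WT+Cerulein and 582000 to 623000 FPKM in WT, over the 25 listed enzymes with every mark restored, so the scale of all other genes depends on how libraries are made comparable.

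On the deposited scale the mean of each of the 10 genes was higher in WT+Cerulein than in WT, by amounts that ranged from 0.23 for Anxa6 to 4.93 for S100a11 in log2 at the leading placements, and to 4.00 for S100a10 at the other ones. The median difference in log2(FPKM + 1), WT+Cerulein minus WT, was 2.15 over the 10 genes with open values at their leading placement and 3.02 with them at the other, beside 0.10 over the 6994 genes tested. All WT+Cerulein libraries exceeded all WT libraries for 7 of the 10 genes at either placement, and the same held for 17.9% of the genes tested. In limma, 12.6% of those genes passed an adjusted p of 0.05, 7.15% as higher and 5.46% as lower. In bulk RNA of this kind, more cells of a type and more RNA per cell cannot be told apart.

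**Figure D1:**
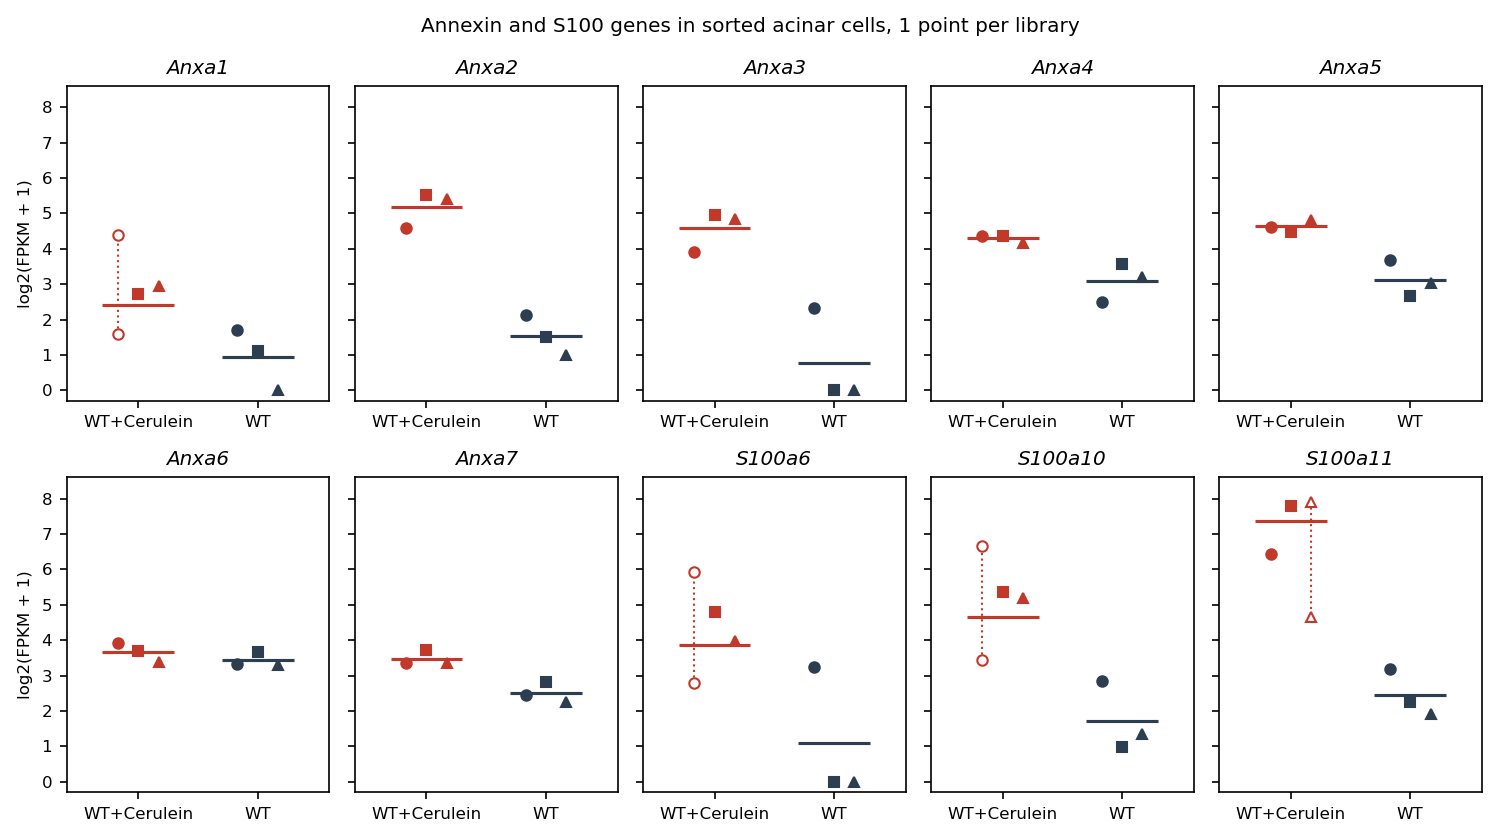
Level of each gene as log2(FPKM + 1), 1 point per library (circle, square and triangle for libraries 1, 2 and 3 of a group) with WT+Cerulein left and WT right; lines are means over 3 libraries at the leading placement, and open symbols joined by dots are the 2 placements of a value whose decimal mark could not be restored. Anxa2, Anxa3, Anxa4, Anxa5, Anxa7, S100a10 and S100a11 do not overlap between groups at either placement, and Anxa6 does.

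Anxa2 forms a complex with S100a10 that binds plasminogen and its activator at the cell surface and bridges membranes to actin. Anxa2 was at 22.8, 45.1 and 41.2 FPKM in the WT+Cerulein libraries (368, 854 and 860 fragments), against 3.41, 1.84 and 0.981 FPKM in the WT libraries (13, 4 and 3 fragments). Every WT+Cerulein library was above every WT library, with WT+Cerulein 1 the lowest of its group. The means were 36.4 ± 11.9 FPKM in WT+Cerulein and 2.08 ± 1.23 FPKM in WT (SD, n = 3 each), a log2 difference of 3.62 with a standard error of 0.39. Standard errors of log2 differences are those of limma, which draws the variance of each gene towards that of all genes tested. Its partner S100a10, which has lost the ability to bind calcium, was at 40.1 and 35.5 FPKM in WT+Cerulein 2 and 3, against 6.26, 0.977 and 1.55 FPKM in the WT libraries. In WT+Cerulein 1 it was at 9.95 FPKM (64 fragments, posterior 0.720) or 99.5 FPKM (640 fragments, posterior 0.280). At either value the groups did not overlap, and the log2 difference was 2.94 or 4.00. The WT values of S100a10 rest on 10, 2 and 2 fragments.

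The ratio of the partners did not separate the groups. S100a10 per Anxa2, as a ratio of FPKM, was 0.891 and 0.863 in WT+Cerulein 2 and 3 and 0.436 or 4.36 in WT+Cerulein 1. In WT libraries 1 to 3 it was 1.84, 0.532 and 1.58, so the groups overlap at the lower value of WT+Cerulein 1 and, in part, at the higher. The WT ratios rest on 10, 2 and 2 fragments of S100a10 and 13, 4 and 3 of Anxa2. They are too few to tell whether the ratio differs between the groups. Among other binding partners, the scaffold Ahnak, which the Anxa2 complex recruits to the plasma membrane, was at 6.89, 10.8 and 12.4 FPKM in WT+Cerulein, against 8.33, 1.02 and 0.525 FPKM in WT, and did not pass the test (adjusted p = 0.0723, limma). Plat, tissue plasminogen activator, was at 1.17 to 2.04 FPKM in WT+Cerulein and at 0 to 1.69 FPKM in WT (adjusted p = 0.248, limma). Plasminogen itself, Plg, was listed at 0 in every WT library and reached 0.352 FPKM in WT+Cerulein.

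S100a11, which binds Anxa1 and Anxa2 and is known in epidermis and in wound repair, had the highest level of the 10 genes after cerulein. It was at 86.0 and 219 FPKM in WT+Cerulein 1 and 2 (363 and 1073 fragments), against 8.12, 3.73 and 2.77 FPKM in WT (10, 5 and 4 fragments). In WT+Cerulein 3 it was at 240 FPKM (1390 fragments, posterior 0.941) or 24.0 FPKM (139 fragments, posterior 0.059). The groups did not overlap at either value, and the log2 difference was 4.93 or 3.84. With the higher value the mean was 182 ± 83.6 FPKM in WT+Cerulein and 4.87 ± 2.85 FPKM in WT (SD, n = 3 each). S100a6, also called calcyclin, was at 26.8 and 14.8 FPKM in WT+Cerulein 2 and 3, against 8.50 FPKM in WT 1 (11 fragments) and 0 in WT 2 and WT 3. In WT+Cerulein 1 it was at 5.99 FPKM (42 fragments, posterior 0.890) or 59.9 FPKM (420 fragments). The lower value lies below that of WT 1, so whether the groups overlap depends on the open mark, and the log2 difference was 2.78 or 3.82.

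Anxa3, an annexin known from neutrophil granules, was at 14.01, 30.3 and 27.8 FPKM in WT+Cerulein (249, 552 and 643 fragments), against 4.05 FPKM in WT 1 (8 fragments) and 0 in WT 2 and WT 3. The groups did not overlap, and the log2 difference was 3.80 with a standard error of 0.59. Anxa1, the lipocortin through which glucocorticoids restrain inflammation, had the lowest mean of the 10 genes in both groups at the leading placement. It was at 5.58 and 6.65 FPKM in WT+Cerulein 2 and 3, against 2.26, 1.15 and 0 FPKM in WT. In WT+Cerulein 1 it was at 2.00 FPKM (38 fragments, posterior 0.943), inside the WT range, or at 20.0 FPKM (380 fragments, posterior 0.057). Its log2 difference was 1.47 or 2.41. The formyl peptide receptors that Anxa1 acts on were near 0: Fpr1 reached 0.189 FPKM and Fpr2 0.739 FPKM in WT+Cerulein, and both were listed at 0 in every WT library.

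The 4 annexins with the highest means in WT differed less between the groups than Anxa2 and Anxa3 did. Anxa5, which binds phosphatidylserine and is used to stain dying cells, was at 23.7, 21.4 and 27.3 FPKM in WT+Cerulein, against 11.8, 5.34 and 7.26 FPKM in WT. The groups did not overlap, and the log2 difference was 1.51 with a standard error of 0.33. The mark of the WT+Cerulein 3 value rests on the other libraries: with a looser replicate term it leads at 2.73 FPKM, below every WT value, and the difference is 0.54. Anxa4, an annexin of secretory epithelia, was at 19.6, 19.7 and 17.0 FPKM in WT+Cerulein, against 4.65, 10.8 and 8.29 FPKM in WT. Its log2 difference was 1.21 with a standard error of 0.34. Anxa7, or synexin, which fuses secretory granules in cell-free assays, was at 9.30, 12.2 and 9.19 FPKM in WT+Cerulein, against 4.46, 6.09 and 3.79 FPKM in WT. Its groups did not overlap either, with a log2 difference of 0.97 and a standard error of 0.30. Anxa6, the annexin with a duplicated core, was at 14.2, 11.9 and 9.47 FPKM in WT+Cerulein, against 9.14, 11.7 and 8.93 FPKM in WT. Its groups overlapped, and the log2 difference was 0.23 with a limma standard error of 0.30. The pooled SD of its log2 values within groups was 0.24.

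The order of levels differed between the groups. In WT, Anxa6 (9.93 FPKM on average), Anxa5 (8.14 FPKM) and Anxa4 (7.92 FPKM) led, and the range of each gene overlapped that of the next throughout the order. In WT+Cerulein, S100a11 stood first, above the range of Anxa2 with the leading placement, and Anxa2 (36.4 FPKM), S100a10 (28.5 FPKM), Anxa5 (24.1 FPKM) and Anxa3 (24.0 FPKM) came next with overlapping ranges. Anxa1 was last in both groups at its leading placement. Summed over the 7 annexins, the level was 106 to 146 FPKM in WT+Cerulein and 29.2 to 39.8 FPKM in WT. Summed over the 3 S100 genes, it was 102, 286 and 290 FPKM in WT+Cerulein, against 22.9, 4.71 and 4.32 FPKM in WT, with open values at their leading placement. At the other placement the WT+Cerulein sums were 245, 286 and 74.4 FPKM, and at either they lay above every WT sum.

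The sizes depend on the scale. When each library was scaled to the listed FPKM outside the digestive enzymes, the median of all genes tested moved to 0.51 and all 10 genes stayed above 0. When each was instead scaled to its implied total less the digestive enzymes, the median of all genes moved to -0.94 (in WT 2 this total is below the restored fragments). Then Anxa4, Anxa6 and Anxa7 turned to -0.16, -1.13 and -0.33, and Anxa5 and Anxa1 stood at 0.14 and 0.55. Anxa2 stood at 2.39, Anxa3 at 2.92, S100a6 at 1.92, S100a10 at 1.73 and S100a11 at 3.57, with open values at their leading placement. Relative to the median of all genes, 9 of the 10 were higher in WT+Cerulein under each of the 3 scalings, and Anxa6 was above it under 2 of them. Of all genes called, 56.7% were higher on the deposited scale, 87.9% with the first scaling and 4.75% with the second.

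**Figure D2:**
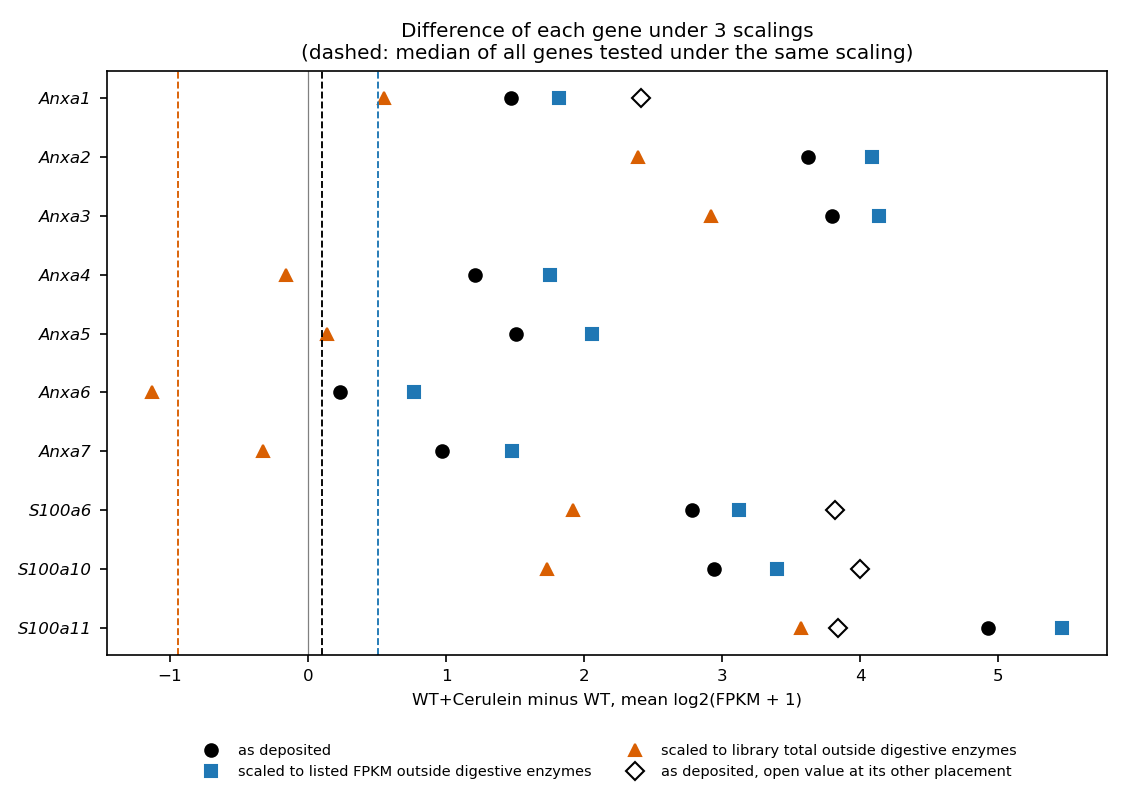
Difference in mean log2(FPKM + 1), WT+Cerulein minus WT, for each gene as deposited, under 2 other scalings and, for the 4 genes with an open value, at its other placement; dashed lines are the medians of all genes tested under the same scaling. S100a11, Anxa2 and Anxa3 lie at 2.39 or more under every scaling shown, and Anxa6 lies at 0.23, 0.77 and -1.13 beside medians of 0.10, 0.51 and -0.94.

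Which annotated transcript carried a gene also varied between libraries. The table splits Anxa6 between transcripts of 2471 and 2489 bases, which differ by an exon of 18 bases at chr11:54987051-54987068. The shorter, without that exon, held 100% of the gene's FPKM in WT+Cerulein 1 and 2 and in all WT libraries, and 35.0% in WT+Cerulein 3. For Anxa2 the transcript of 1447 bases held 100%, 92.0% and 81.7% in WT+Cerulein 1 to 3, and shares in WT rest on 3 to 13 fragments. For Anxa3 the transcript of 1595 bases held 94.9%, 75.3% and 77.9% in WT+Cerulein, against 23.7% of 8 fragments in WT 1. For S100a6 the transcript of 731 bases held 100%, 100% and 31.0% in WT+Cerulein, against 24.3% of 11 fragments in WT 1. Reads of such overlapping transcripts are assigned by estimation, so these shares were not compared between groups.

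**Figure D3:**
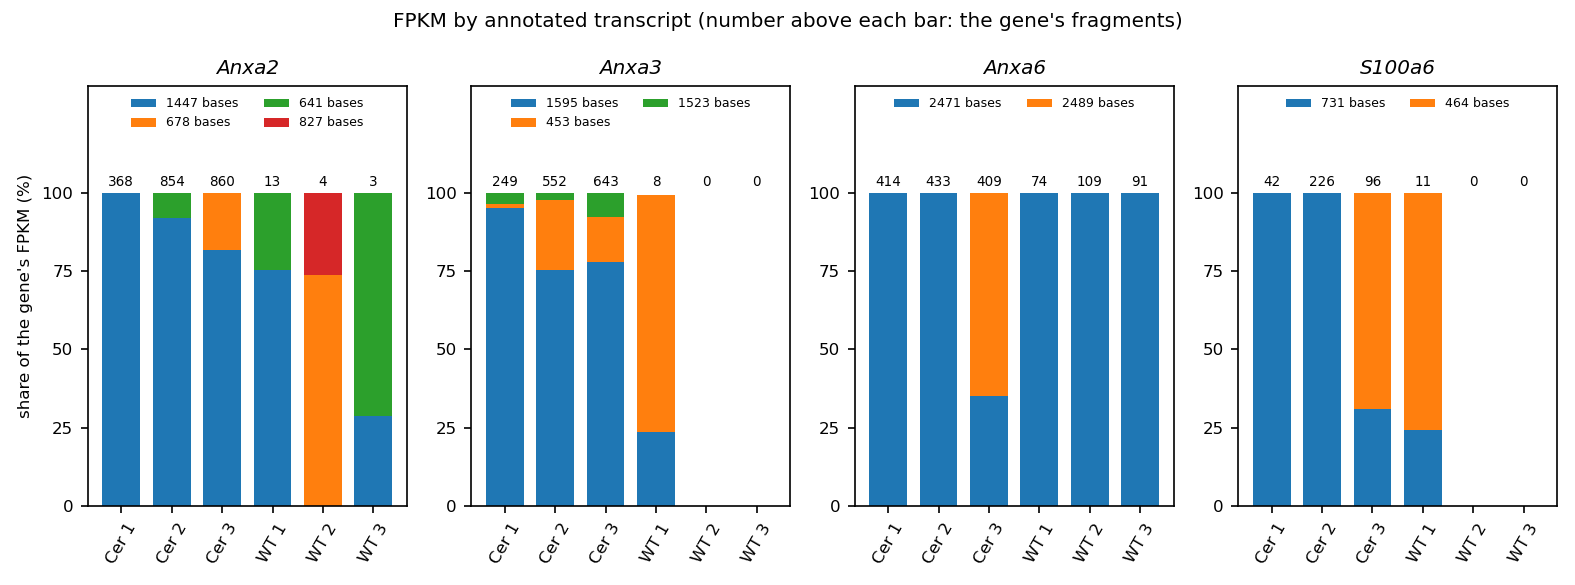
Share of each gene's FPKM held by its annotated transcripts (percent, stacked, named by length) in 3 WT+Cerulein libraries left and 3 WT libraries right, with the gene's fragments above each bar; transcripts under 1% in every library are not drawn, and an empty place is a gene at 0. Anxa6 is 1 transcript in 5 libraries and split in WT+Cerulein 3, and WT bars of Anxa2, Anxa3 and S100a6 stand on 0 to 13 fragments.

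Most of the rest of both families was low, and none of the members that could be tested passed the threshold on the deposited scale. The list of other annexin and S100 genes held 18 genes, of which 12 were below 1 FPKM in 4 or more libraries, 2 had open values and 4 were tested. None of the 4 passed in limma after adjustment over all genes, and 1 had an unadjusted p under 0.05. That gene was S100a4, known from fibroblasts and motile cells, at 0.858, 5.55 and 5.23 FPKM in WT+Cerulein, against 1.61, 0 and 0 FPKM in WT (1 to 29 fragments where above 0; log2 difference 1.62 ± 0.54 SE, adjusted p = 0.0777, limma). Its adjusted p (limma) was 0.0214 without WT 1 and 0.0265 without WT+Cerulein 1. With each of the other libraries left out in turn it was 0.182 to 0.278, and with no filter it was 0.253. S100a8 and S100a9, which form calprotectin of neutrophils and monocytes, were at 0 in WT+Cerulein 1 and in all WT libraries. S100a8 was at 2.89 and 3.20 FPKM and S100a9 at 20.5 and 11.3 FPKM in WT+Cerulein 2 and 3. S100a1 was at 9.64, 10.8 and 11.5 FPKM in WT+Cerulein, against 8.89, 10.9 and 12.8 FPKM in WT (log2 difference -0.02 ± 0.29 SE, adjusted p = 0.979, limma). S100a16 was at 17.5, 19.5 and 12.4 FPKM in WT+Cerulein, against 16.9, 14.1 and 12.9 FPKM in WT (adjusted p = 0.791, limma), and Anxa11 at 3.93 to 4.68 FPKM in WT+Cerulein, against 1.88 to 3.51 FPKM in WT (adjusted p = 0.219, limma). These calls turn with the scale: 2 of the 4 passed when libraries were scaled to the listed FPKM outside the digestive enzymes (S100a4 and Anxa11, both higher), and 2 when they were scaled to the implied total less those enzymes (S100a1 and S100a16, both lower).

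Genes that work with annexins in sealing torn membranes were read against the share of all tested genes that rose, 7.15%. On the membrane repair list 13 of 14 genes were in the table, 2 were below the filter, 4 had open values and 7 were tested. The genes with open values were Capn1, Capns1, Tsg101 and Chmp2a. At unsettled marks the mean of Tsg101 leads lower in WT+Cerulein and those of the others lead higher. Of the 7 tested, 3 rose and 4 missed the threshold, Vps4a and Vps4b with differences below 0 (-0.49 and -0.08). The median log2 difference of the 7 was 0.82, beside 0.10 over all genes tested. Capn2, a calpain protease that trims cytoskeletal proteins at wounds, was at 18.0, 18.9 and 16.9 FPKM in WT+Cerulein, against 6.15, 1.94 and 5.16 FPKM in WT (log2 difference 1.90 ± 0.37 SE, adjusted p = 0.00897, limma). Chmp4b, an ESCRT-III subunit that pinches off damaged membrane, was at 44.4, 39.3 and 33.5 FPKM in WT+Cerulein, against 11.2, 9.61 and 19.1 FPKM in WT (log2 difference 1.54 ± 0.33 SE, adjusted p = 0.0140, limma). Myof, myoferlin, a calcium sensor of membrane fusion, was at 2.72, 3.01 and 4.58 FPKM in WT+Cerulein, against 1.61, 0.641 and 0.0973 FPKM in WT (log2 difference 1.38 ± 0.37 SE, adjusted p = 0.0353, limma). On the list of direct partners all 15 genes were in the table and 7 were tested. Of these, 1 rose and 6 missed the threshold, and the median log2 difference of the 7 was 0.76. A count of 1 in 7 is near the share over all genes and is no result about the list. The gene that rose was Pdcd6, or ALG-2, a calcium-binding protein that binds Anxa7 and Anxa11 and brings ESCRT proteins to wounds. It was at 11.4, 12.7 and 15.0 FPKM in WT+Cerulein, against 3.35, 2.93 and 5.20 FPKM in WT (log2 difference 1.56 ± 0.31 SE, adjusted p = 0.00962, limma).

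These 4 calls are not firm. None of the 4 genes passed when libraries were scaled to their implied total less the digestive enzymes (adjusted p of 0.182 for Capn2, 0.776 for Chmp4b, 0.317 for Myof and 0.474 for Pdcd6, limma), and all stayed above 0. Chmp4b also missed the threshold without any 1 of the WT+Cerulein libraries (adjusted p of 0.0592, 0.0748 and 0.0613 without libraries 1, 2 and 3). Pdcd6 missed it without WT+Cerulein 2 (0.0580) or 3 (0.0711), and Myof without any WT+Cerulein library (0.0745, 0.111 and 0.175) and without WT 2 (0.0894) or WT 3 (0.0764).

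The genes whose profile over the 6 libraries was most like that of Anxa2 among the genes tested were Vil1 (Pearson r of 0.9971 on log2 values), Pitpnc1 (0.9954), Il1rn (0.9951), Iqgap1 (0.9950) and Ctnnbl1 (0.9932). The 6 libraries fall into 2 groups, so any gene that differs between them gives a high r. Il1rn, the secreted antagonist of the interleukin-1 receptor, was at 6.14, 14.3 and 15.5 FPKM in WT+Cerulein, against 1.09, 0.546 and 0 FPKM in WT. Iqgap1, a scaffold of the actin cortex, was at 12.2, 16.2 and 18.4 FPKM in WT+Cerulein, against 4.59, 3.95 and 3.35 FPKM in WT. Vil1, villin, the actin bundler of microvilli, was at 1.15, 2.00 and 1.77 FPKM in WT+Cerulein, against 0.289, 0.0836 and 0 FPKM in WT. Among the members, r with Anxa2 was 0.97 for Anxa3, 0.94 for Anxa5, 0.93 for Anxa7, 0.80 for Anxa4 and 0.41 for Anxa6. For the members with an open value it was 1.00 for S100a11, 0.95 for S100a10, 0.88 for Anxa1 and 0.87 for S100a6 at the leading placement, and 0.90, 0.92, 0.83 and 0.86 in the same order at the other.

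Markers of other cells moved with the group too. Of the 15 macrophage and myeloid genes, 11 could be tested, and 8 rose and none fell. The 3 that missed the threshold were C1qa, C1qb and C1qc (adjusted p of 0.109, 0.0646 and 0.209, limma). Over all genes tested, 7.15% rose and 5.46% fell. These shares also stand beside the matrix and duct counts below, and all of these counts are on the deposited scale. The sum of the 11 was 74.5, 138 and 121 FPKM in WT+Cerulein, against 29.8, 8.69 and 1.43 FPKM in WT. Cd53, a leukocyte tetraspanin, was at 18.1, 22.0 and 25.2 FPKM in WT+Cerulein, against 1.26, 0 and 0.288 FPKM in WT. Ptprc, the pan-leukocyte antigen CD45, was at 19.9 and 16.6 FPKM in WT+Cerulein 2 and 3 and between 2.43 and 155 FPKM in WT+Cerulein 1, against 0.834, 0.167 and 0.0506 FPKM in WT. Lyz2 was at 44.7, 81.0 and 91.7 FPKM in WT+Cerulein and at 0 in WT 3. Its open values lead at 18.8 FPKM in WT 1 (between 1.88 and 188 FPKM) and at 2.72 FPKM in WT 2 (between 2.72 and 272 FPKM). Whether its groups overlap is therefore not settled. Of the 10 matrix and fibroblast genes 8 were tested, and 6 rose and 2 missed the threshold. The sum of the 8 was 182, 124 and 202 FPKM in WT+Cerulein, against 32.4, 3.69 and 0.925 FPKM in WT. The 2 that missed it are receptors and were highest in WT 1. Pdgfra was at 3.86, 2.26 and 2.22 FPKM in WT+Cerulein, against 11.9, 0.0941 and 0.141 FPKM in WT (adjusted p = 0.691, limma). Pdgfrb was at 2.21, 0.608 and 1.92 FPKM in WT+Cerulein, against 7.29, 0.0470 and 0 FPKM in WT (adjusted p = 0.843, limma). Col1a2, a chain of type I collagen, was at 40.7, 31.8 and 50.7 FPKM in WT+Cerulein, against 2.73, 0.0476 and 0.260 FPKM in WT.

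Of the 7 duct genes 5 were tested, and 3 rose and 1 fell. Krt19, a keratin of duct cells that acinar cells also take up in injury, was at 104, 101 and 89.8 FPKM in WT+Cerulein, against 7.86, 3.35 and 6.29 FPKM in WT. All 8 neutrophil genes were below the filter: their sum over the 7 with every mark restored was at most 4.14 FPKM in WT+Cerulein and at most 0.0952 FPKM in WT, and Ly6g, Mpo and Camp were at 0 throughout. Endothelial genes were below the filter but for Eng, at 2.68, 2.27 and 2.49 FPKM in WT+Cerulein, against an open WT 1 value that leads at 14.3 FPKM and 0 in WT 2 and WT 3. The 1 islet gene tested, Ppy, did not pass. Within WT, WT 1 had the highest sums of macrophage and matrix genes. It was also the highest in Anxa1, Anxa2, Anxa3, Anxa5 and all 3 S100 genes, and the lowest in Anxa4. The duct genes with every mark restored also summed highest in WT 1 (50.2 FPKM, against 31.2 and 19.5 FPKM in WT 2 and WT 3). WT 1 had the most genes above 0 as well (13297, against 10959 and 11521). Within WT+Cerulein, Anxa2 was highest in library 2 (45.1 FPKM). There the macrophage sum was highest (138 FPKM) and the matrix sum lowest (124 FPKM). Annexins and these S100 genes are made by macrophages, fibroblasts and duct cells as well as by acinar cells, and the part of such cells in the differences was not tested.

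**Figure D4:**
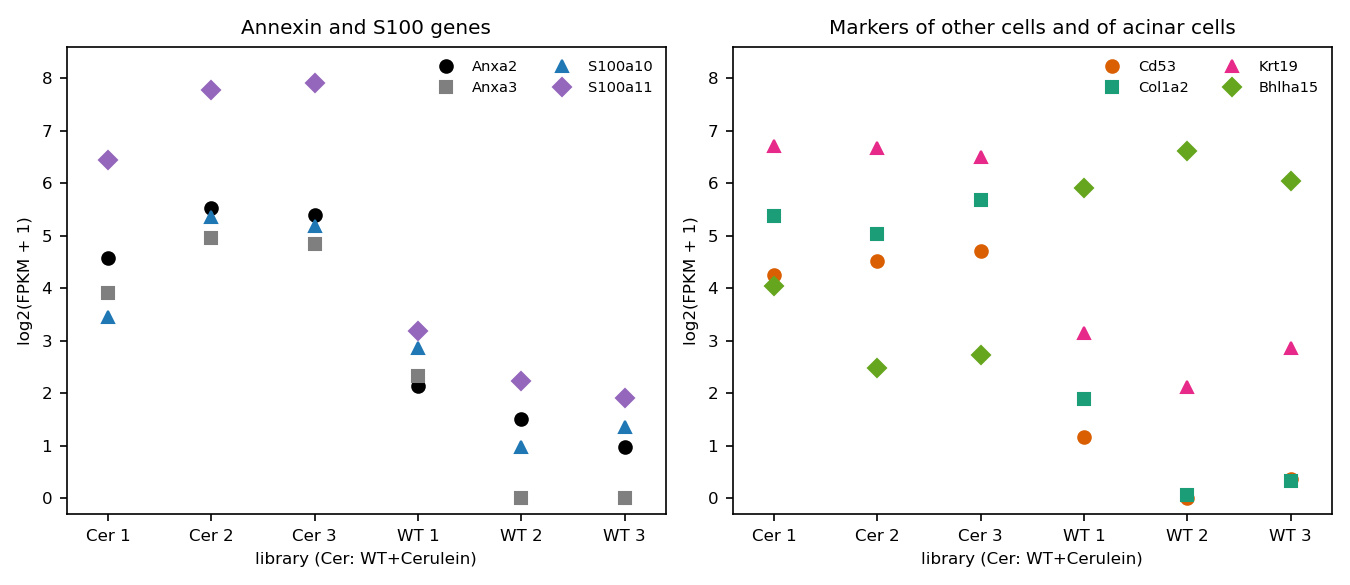
Level as log2(FPKM + 1) in 3 WT+Cerulein libraries (Cer 1 to 3, left) and 3 WT libraries (right), for 4 of the annexin and S100 genes at their leading placement (left panel) and for markers of leukocytes (Cd53), fibroblasts (Col1a2), duct cells (Krt19) and acinar cells (Bhlha15; right panel). All but Bhlha15 are higher in each WT+Cerulein library than in each WT library, and Bhlha15 is lower.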

How the data were processed

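The 10 genes, the lists and the placement of decimal marks were chosen with earlier results of these data known. According to the submitters' processing notes, the build was mm10 and the tools were HISAT2, fastp, featureCounts and DESeq2; none of the sources used here ties the FPKM to one of them. The authors deposited FPKM per transcript. Many values above 1 carry a decimal mark moved to a fixed place, so the unit was recorded as other, and what was tested is the restored FPKM. A mark was placed by Bayes' rule. The candidates were the values a factor of 10 apart, and the evidence was whether FPKM times effective length (GENCODE vM21) gave whole fragments and how near the value came to the other libraries of its group (spread of 0.6 log2 units). For some genes, among them Anxa7, a length change was fitted. The rule went through several versions with intact values, simulated tables and these genes in view. Intact values of at least 1 FPKM whose mark was removed were placed in 535 of 604 cases and rightly in 532 (99.44%), a share that is not independent of the rule. Only 50 of these values lay at 10 to under 100 FPKM, the level of many WT+Cerulein values of the 10 genes. Of those 50, 45 were placed and 44 rightly (97.78%).

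Genes with a posterior of at least 0.95 in all 6 libraries and at least 1 FPKM in at least 3 (6994 genes) were tested with limma 3.58.1 (R 4.3.3) on log2(FPKM + 1), two-sided, with Benjamini-Hochberg adjustment over all of them and a threshold of 0.05. Of these genes 882 were called, 500 higher and 382 lower. Restored protein-coding fragments came to 4138365 to 4989676 per WT+Cerulein library and 3216940 to 4264614 per WT library. The total that the authors divided by is not given. In units of 1000000 fragments the deposited scale implies totals of 12.7 to 19 for WT+Cerulein and 3.5 to 4.47 for WT. In WT 2 the restored fragments, at 4.26 in these units, exceed the implied total of 4.06. With the marks as placed, that figure is therefore not a plain library total. What the implied totals are was not settled, and the scaling to the implied total less the digestive enzymes rests on them. A scaling by summed restored fragments was tried and not kept, since it leans on open values. Genes named are the 10 genes, listed partner and family genes that changed, S100a4, S100a8, S100a9, set markers and the 5 genes most like Anxa2. Ahnak, Plat, Plg, Fpr1, Fpr2, S100a1, S100a16, Anxa11, Ppy, Ly6g, Mpo, Camp, Vps4a and Vps4b were added after their values were seen. So were Pdgfra, Pdgfrb, Capn1, Capns1, Tsg101 and Chmp2a. Scripts were tested on simulated data. Fits with other scalings, pseudocounts, filters, placements, a replicate block and each library left out are given at the end.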

Additional observations from a re-analysis of the deposited data

How the results depend on the processing

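The median difference of the 10 genes (2.15) stayed above 0 in every fit tried. It was 1.14 when libraries were scaled to their implied total less the digestive enzymes and 3.02 with open values at the other placement (both chosen after seeing the data). With a pseudocount of 0.1 FPKM it was 3.07, and over the 4 genes that reach a posterior of 0.99 it was 1.36. Leaving out 1 library gave 1.86 to 2.68. Single differences that turned sign, under the first of these scalings, were those of Anxa4 (-0.16), Anxa6 (-1.13) and Anxa7 (-0.33). With a replicate spread of 1.5, or without the replicate term, Anxa5 in WT+Cerulein 3 led at a lower placement. Its difference fell to 0.54, so that value rests on its replicates. Under the same 2 settings the open value of S100a11 led at its other placement, and its difference was 3.84 in place of 4.93.

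Of all genes, 882 were called, against 1706 when scaled to the listed FPKM outside the digestive enzymes and 3240 when scaled to the implied total less those enzymes. The count was 529 with a pseudocount of 0.1 FPKM, 539 with no filter, 564 with a replicate spread of 1.5 and 63 without the replicate term (1036 genes tested). With 1 library left out it was 257 to 1535, the lowest without WT+Cerulein 3 and the highest without WT 1. Among other annexin and S100 genes 0 were called, against 2 under each of these scalings (S100a4 and Anxa11 higher in the first, S100a1 and S100a16 lower in the second) and 0 to 1 with 1 library left out. Among partners and membrane repair genes 4 were called, against 7 with the first scaling, 2 with the second (Vps4a and Vps4b, both lower), 2 with no filter, 0 without the replicate term and 1 to 7 with 1 library left out.

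Same-numbered libraries deviated from their group means with correlations of 0.16, 0.12 and -0.05, and WT+Cerulein 3 was nearest to WT 2, so the numbers are not taken as pairs; with the replicate block 868 genes were called, and 4 partner and repair genes, 0 other family genes and a median of 2.15 were as without it. WT values of 1 to 13 fragments limit what can be said of Anxa1, Anxa2, Anxa3 and the S100 genes in untreated cells.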

Other observations

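Anxa10, an annexin of the gastric lining, was singled out after its values were seen. It was listed at 0 in all 3 WT libraries, and the decimal marks of its WT+Cerulein values could not be restored: they lie between 2.55 and 255 FPKM, between 8.32 and 472 FPKM and between 8.11 and 403 FPKM in WT+Cerulein 1 to 3. At any placement each WT+Cerulein library is above each WT library. S100g, a calcium-buffering S100 protein of absorptive epithelia, picked in the same way, was at 33.5 and 31.9 FPKM in WT+Cerulein 2 and 3 and between 6.53 and 653 FPKM in WT+Cerulein 1, against 8.91, 0 and 0 FPKM in WT.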
